A study of Bos taurus with 8 samples.

Results

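The B cell activation and costimulation genes CD83, CD40, CD80, CD86, CR2 and BCL2A1 were followed in peripheral blood mononuclear cells of cattle during exposure of whole blood to lipopolysaccharide (LPS), a component of the outer membrane of Gram-negative bacteria. They were chosen by name and are 6 of the 21861 genes in the RNA tables, where each name stood on a single row. Their Ensembl identifiers were ENSBTAG00000050334 for CD83, ENSBTAG00000020736 for CD40, ENSBTAG00000018059 for CD80, ENSBTAG00000013118 for CD86, ENSBTAG00000038496 for CR2 and ENSBTAG00000000735 for BCL2A1.

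Blood of 4 lactating Holstein females aged 2 years was pooled and divided into 4 parts. One part received no LPS, and the other 3 were kept with 2 µg/ml of LPS, for 2 h in the first, 4 h in the next and 8 h in the last. The incubation time of the part without LPS was not given. Each part gave 1 single-cell RNA library and 1 single-cell chromatin accessibility (scATAC) library, so each time point rests on 1 library and the animals cannot be told apart. No p-value was computed for that reason, and every interval below is a 95% interval for counting error only.

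A B cell that meets a microbial product raises surface receptors and ligands with which it exchanges signals with helper T cells. CD40 receives the T cell signal carried by CD40 ligand, and CD80 and CD86 bind CD28 and CTLA4 on T cells. CD83 is a surface protein of activated B cells and mature dendritic cells, CR2 (CD21) binds complement fragments of C3 and lowers the threshold of the B cell receptor, and BCL2A1 is a BCL2 relative that restrains cell death and is a target of the transcription factor NF-kB.

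The RNA libraries held 30902952 to 63770426 unique molecular identifiers (UMIs, each one counted RNA molecule), the fewest at 8 h, and 3411 to 9865 barcodes per library were kept as cells. MS4A1-positive cells, with at least 2 UMIs of the B cell surface gene MS4A1 and at most 1 of CD14 and of FLT3, numbered 1603 in the library without LPS and, in order of time, 2261, 1778 and 612 in the LPS libraries. CD14-positive cells, chosen likewise by the monocyte receptor gene CD14, numbered 842, 368, 161 and 109, and FLT3-positive cells only 7, 8, 3 and 5. CD3-positive cells, with at least 2 UMIs summed over CD3D, CD3E and CD3G, served as a class in which expression of CR2 and CD40 would be low. Pairs of libraries shared 6 to 21 barcodes, at most 0.352% of the smaller library. Levels are given as CPM, the UMIs of a gene scaled to a class total of 1000000 UMIs, and a gene was counted as higher or lower when the ratio on the log2(CPM + 1) scale passed 2-fold with at least 20 UMIs over both sums. The 3 comparisons of LPS times share the library without LPS.

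The classes were checked against marker lists. In MS4A1-positive cells the 10 B cell markers summed to between 2920 and 3826 CPM and none was at 0, while the 12 monocyte markers summed to between 70.3 and 290 CPM. In CD14-positive cells the monocyte markers summed to between 9964 and 14838 CPM, and the B cell markers to 53.7, 33.6, 121 and 201 CPM in order of time, from no LPS to 8 h. The FLT3-positive cells had high BATF3, at 1341, 644, 1458 and 1448 CPM, but so had CD14-positive cells, at 1046, 1274, 1374 and 977 CPM. In the FLT3-positive cells CLEC9A, XCR1, CADM1, CD1A and ANPEP were at 0 in all 4 libraries, so they are named by FLT3 alone. The CD14-positive cells at 8 h were also shallow, with a median of 3449 UMIs against 9847 without LPS.

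In MS4A1-positive cells BCL2A1, CD83, CD40 and CR2 were higher after 2 h of LPS than without it, from 4.12-fold for CR2 to 10.4-fold for BCL2A1. All were lower at 4 h than at 2 h and lower again at 8 h, while still above the level without LPS. CD80 and CD86 were low in this class in every library and stayed within counting error of the level without LPS.

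CD83 measured 180 CPM (95% interval 171 to 189) without LPS, 1167 CPM (1148 to 1186) at 2 h, 658 CPM (643 to 672) at 4 h and 360 CPM (342 to 379) at 8 h. The library without LPS was the lowest and that at 2 h the highest, and no interval overlapped another. The fold against no LPS was 6.49 (6.15 to 6.85) at 2 h, 3.66 (3.46 to 3.87) at 4 h and 2.01 (1.87 to 2.16) at 8 h, the last with a log2 ratio of 1.00, at the edge of the threshold.

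**Figure D1:**
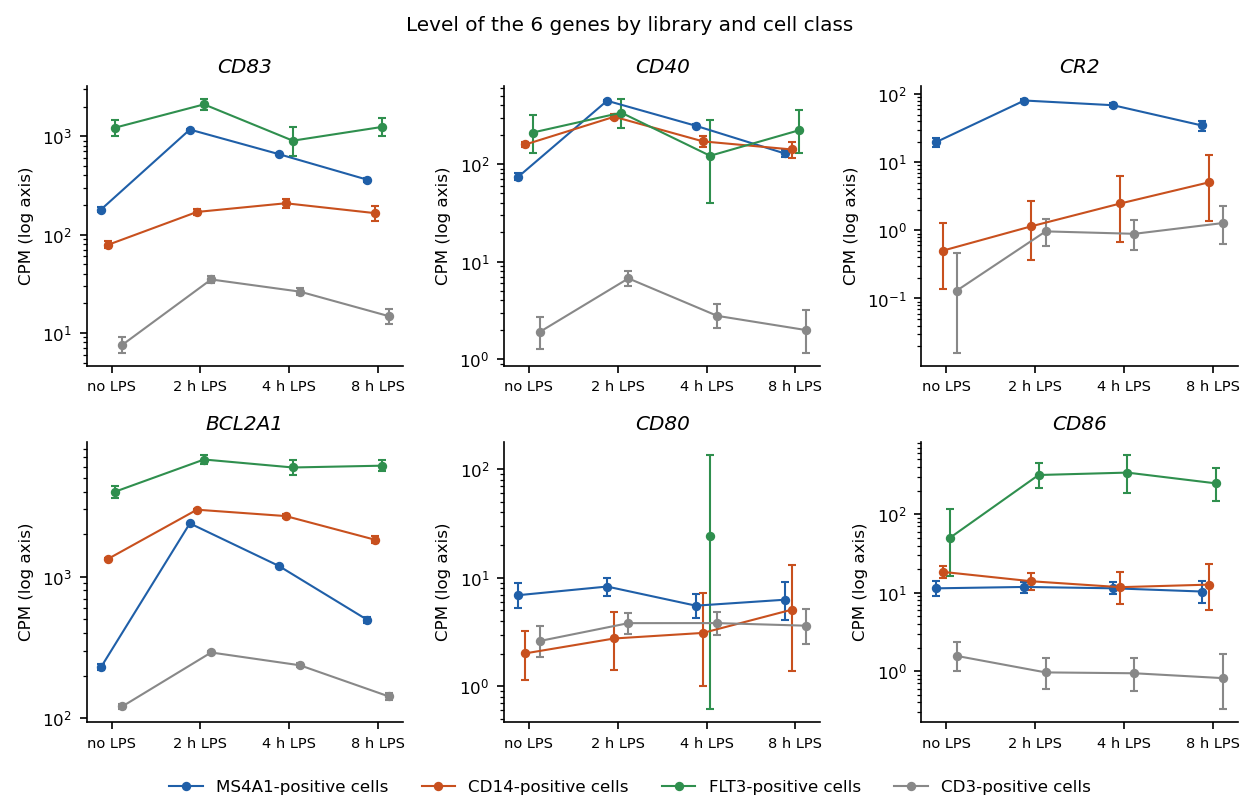
Level of each gene in CPM (log axis) in the 4 libraries, for MS4A1-positive, CD14-positive, FLT3-positive and CD3-positive cells; points are class sums of 1 library, bars are exact Poisson 95% intervals, and sums of 0 UMIs are not drawn. CD83, CD40, CR2 and BCL2A1 peak at 2 h in MS4A1-positive cells, where BCL2A1 goes from 230 to 2386 CPM, while CD80 and CD86 stay between 5.53 and 11.9 CPM there.

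CD40, the receptor for the T cell ligand, measured 74.1 CPM (68.3 to 80.2) without LPS, 446 CPM (434 to 457) at 2 h, 247 CPM (238 to 256) at 4 h and 128 CPM (118 to 140) at 8 h. It was 6.01-fold higher at 2 h (5.53 to 6.55), 3.33-fold at 4 h (3.05 to 3.64) and 1.73-fold at 8 h (1.54 to 1.95). The order of the libraries was that of CD83, with the difference at 8 h short of the 2-fold threshold.

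CR2, the complement receptor, measured 19.6 CPM (16.7 to 22.9) without LPS, 80.9 CPM (76.1 to 86.0) at 2 h, 69.0 CPM (64.3 to 74.0) at 4 h and 34.8 CPM (29.3 to 40.9) at 8 h. Its folds were 4.12 (3.49 to 4.89), 3.51 (2.96 to 4.19) and 1.77 (1.40 to 2.23). Between 2 h and 4 h CR2 was 1.17-fold lower (1.07 to 1.29), whereas CD83 was 1.77-fold lower (1.73 to 1.82) and CD40 1.81-fold lower (1.73 to 1.89), so CR2 kept more of its 2 h level at 4 h than those genes did.

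BCL2A1, the survival gene, measured 230 CPM (219 to 240) without LPS, 2386 CPM (2359 to 2413) at 2 h, 1195 CPM (1175 to 1215) at 4 h and 495 CPM (474 to 517) at 8 h. Its fold of 10.4 at 2 h (9.92 to 10.9) was the largest of the 6 genes. It was still 5.20-fold higher at 4 h (4.96 to 5.46) and 2.16-fold higher at 8 h (2.02 to 2.30). From 2 h to 4 h it was 2.00-fold lower (1.96 to 2.04), and from 4 h to 8 h 2.41-fold lower (2.31 to 2.53).

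CD80 measured 6.91, 8.30, 5.53 and 6.28 CPM in the library without LPS and at 2 h, 4 h and 8 h, from 57, 107, 64 and 26 UMIs. CD86 measured 11.4, 11.9, 11.4 and 10.4 CPM, from 94, 153, 132 and 43 UMIs. The log2 ratio of CD80 against no LPS was 0.23 at 2 h (interval of the fold 0.863 to 1.69), −0.28 at 4 h (0.551 to 1.16), and by 8 h it was −0.12 (0.548 to 1.47). The folds of CD86 were 1.04 (0.800 to 1.36), 1.00 (0.763 to 1.32) and 0.911 (0.620 to 1.32). All of these intervals against no LPS include 1 and lie below the folds of BCL2A1, CD83, CD40 and CR2 at 2 h and 4 h, and CD80 at 4 h was 0.666 of its level at 2 h (0.481 to 0.917), so a difference in either ligand as large as theirs was not seen against no LPS at this depth.

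Of the 6 genes, 4 were at least 2-fold higher at 2 h, against 2.55% of the 9974 genes compared. At 4 h the same 4 were higher, against 2.38% of 9897 genes, and at 8 h CD83 and BCL2A1 were, against 1.68% of 9486 genes. None of the 6 was at least 2-fold lower, which 1.39%, 3.79% and 1.75% of all genes were. Among all genes compared at 2 h, ordered by log2 ratio from the highest, BCL2A1 stood at position 7, CD83 at 23, CD40 at 26 and CR2 at 52. At 4 h the positions were 28 for BCL2A1, 58 for CD83, 67 for CR2 and 75 for CD40. The median log2 ratio of the 6 genes was 2.28, 1.74 and 0.79 at 2 h, 4 h and 8 h, beside −0.11, −0.08 and 0.01 over all genes.

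Scaling by the trimmed mean of M values (TMM) moved the median of all genes by 0.10 at 2 h and 0.11 at 4 h on the log2 scale and changed the split of all genes at 2 h from 254 higher and 139 lower to 319 and 70, and those 4 genes were still higher at 2 h and 4 h. At 8 h the call for CD83 was lost with TMM, and neither CD83 nor BCL2A1 passed 2-fold when cells with over 3000 genes were kept or when B cells were chosen by other B cell markers, CD79A and PAX5 among them, in place of MS4A1.

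**Figure D2:**
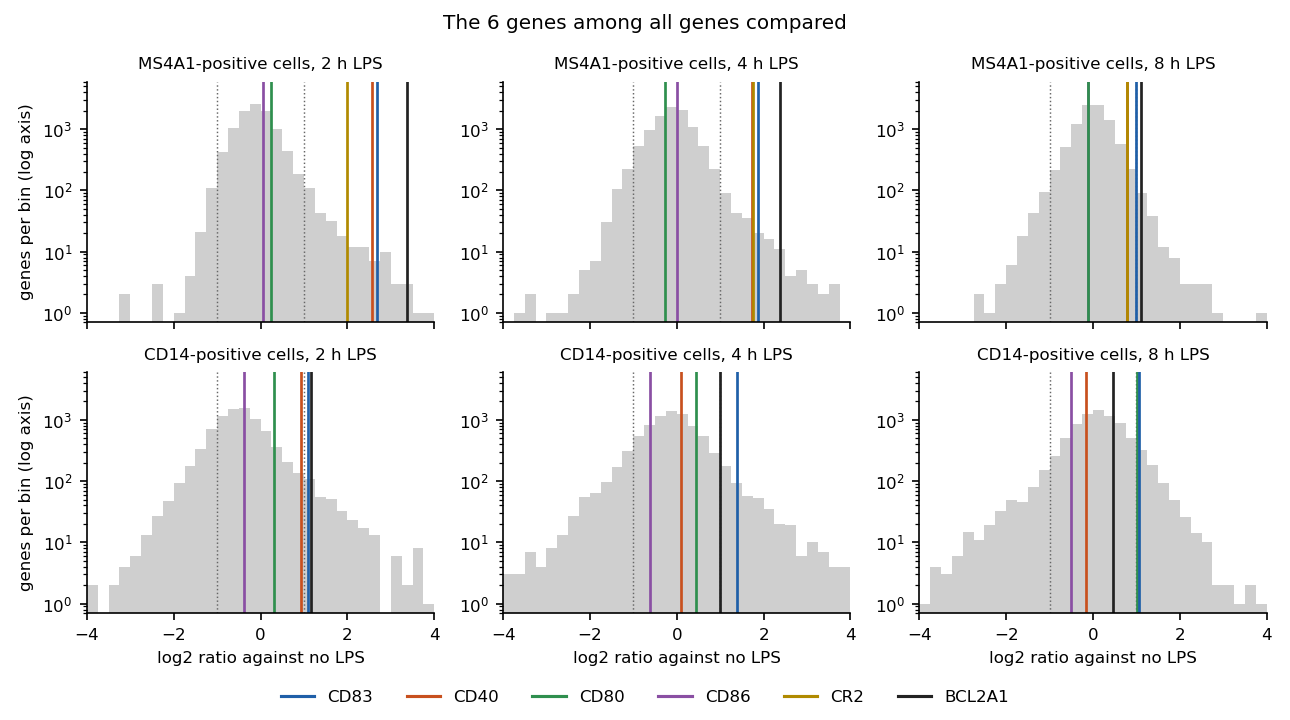
Grey bars count genes (log axis) by log2 ratio against no LPS in MS4A1-positive cells (top) and CD14-positive cells (bottom) at 2 h, 4 h and 8 h, coloured lines mark the 6 genes where compared, and dotted lines mark 2-fold. Lines of CD40 and CR2 nearly coincide at 4 h and 8 h in the top row, as do CD80 and CD86 at 8 h. At 2 h in MS4A1-positive cells BCL2A1, CD83, CD40 and CR2 lie at 3.37, 2.69, 2.57 and 1.99, apart from CD80 and CD86 at 0.23 and 0.05.

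To compare single cells at one depth, each cell was thinned to 1000 UMIs, which left out 5 to 13 shallower MS4A1-positive cells per library. CD83 then had a UMI in 12.1% of MS4A1-positive cells without LPS (10.5 to 13.8), 48.0% at 2 h (45.9 to 50.1), 36.2% at 4 h (34.0 to 38.5) and, by 8 h, 23.1% (19.8 to 26.7). BCL2A1 had one in 15.1%, 50.0%, 40.4% and 25.1%, CD40 in 7.36%, 31.3%, 20.8% and 11.8%, and CR2 in 1.19%, 6.38%, 5.36% and 3.66%. The shares followed the CPM of the class for all 4 genes, highest at 2 h and lowest without LPS. Without thinning, CD83 had a UMI in 30.9%, 70.6%, 66.9% and 56.7% of these cells.

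In CD3-positive cells thinned to the same depth, CD83 had a UMI in 0.335%, 2.41%, 1.87% and 2.20%, and CD40 in at most 0.410%. Median depths before thinning were 4196 to 5462 UMIs in CD3-positive and 4327 to 6143 UMIs in MS4A1-positive cells. CD80 had a UMI in 0.440%, 0.665%, 0.677% and 1.16% of MS4A1-positive cells and in 0.152%, 0.341%, 0.336% and 0.0665% of CD3-positive cells, and CD86 in 0.943%, 1.24%, 0.677% and 0.998% against 0.122%, 0.0910%, 0.168% and 0.0665%. Detection of both ligands was thus rare in either class.

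The amount per cell was uneven at 2 h. BCL2A1 was without a UMI in 50.0% of thinned MS4A1-positive cells, while 17.4% held 5 or more and the highest cell held 21. Without LPS 0.314% of cells held 5 or more UMIs of BCL2A1, and at 8 h 0.832% did. CD83 had 5 or more UMIs in 5.72% of cells at 2 h, 1.47% at 4 h and, by 8 h, 0.166%.

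The same cells tended to hold UMIs of several of these genes. At 2 h BCL2A1 was detected in 69.9% of MS4A1-positive cells with CD83 (67.1 to 72.6) and in 31.6% of those without it (29.0 to 34.4). CD40 was detected in 42.8% of cells with CD83 (39.9 to 45.9) and in 20.7% of those without (18.4 to 23.2), and CR2 in 9.60% and 3.41%. Without LPS BCL2A1 was detected in 27.1% of cells with CD83 (20.9 to 34.0) and in 13.4% of those without (11.7 to 15.3). At least 3 of the 6 genes had a UMI in 0.818% of cells without LPS (0.436 to 1.39), 19.6% at 2 h (18.0 to 21.3), 8.46% at 4 h (7.21 to 9.85) and, by 8 h, 2.83% (1.66 to 4.49). Cells of 1 library are not replicates, so these shares describe that library.

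**Figure D3:**
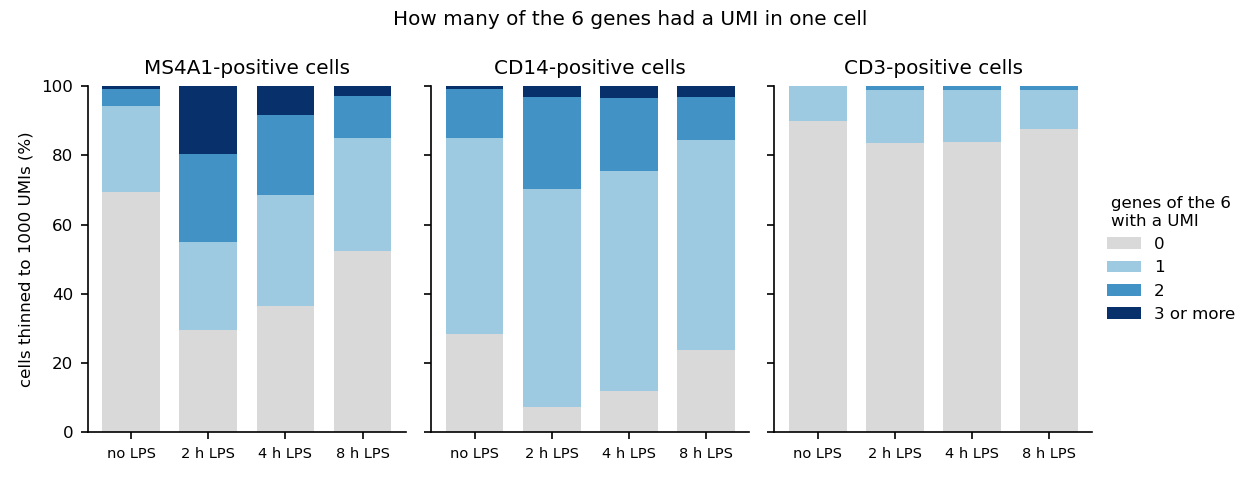
Bars show the percent of cells, thinned to 1000 UMIs, in which 0, 1, 2 or at least 3 of the 6 genes had a UMI, by library, in MS4A1-positive, CD14-positive and CD3-positive cells. In MS4A1-positive cells the share with at least 1 is 30.5%, 70.6%, 63.6% and 47.8% from no LPS to 8 h, while in CD3-positive cells it is 10.1% to 16.5%.

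Genes of 5 related pathways were read in the same cells from lists chosen by function. Genes of CD40 signalling and of B cell activation were often higher at 2 h, whereas nearly all B cell receptor genes stayed within 2-fold. No gene of the 5 lists was at least 2-fold lower in MS4A1-positive cells at any time.

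In the CD40 signalling list, 8 of 16 genes were higher at 2 h, 4 of 16 at 4 h and 2 of 16 at 8 h, with medians of 0.97, 0.53 and 0.21 on the log2 scale. TRAF1, an adaptor of TNF receptors, measured 13.0 CPM without LPS and 107, 45.5 and 29.0 CPM at 2 h, 4 h and 8 h. TNFAIP3 (A20), an inhibitor of NF-kB signalling, measured 22.4, 142, 75.7 and 51.4 CPM. NFKBIA, which holds NF-kB in the cytoplasm, measured 297, 996, 640 and 478 CPM, and NFKB1, an NF-kB subunit, 144, 411, 331 and 212 CPM. All 4 were highest at 2 h and above the level without LPS in each LPS library, as CD40 itself was, and only TRAF1 and TNFAIP3 of the list passed 2-fold at 8 h.

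In the B cell activation list, 11 of the 17 genes with enough UMIs were higher at 2 h, 4 of 17 at 4 h and 3 of 17 at 8 h, with medians of 1.23, 0.80 and 0.09. The early activation antigen CD69 measured 10.4, 90.4, 45.5 and 27.3 CPM in the 4 libraries in order of time. IL2RA, the alpha chain of the interleukin-2 receptor, measured 13.3, 57.6, 68.7 and 35.7 CPM and was highest at 4 h. SLAMF1, a receptor of lymphocyte contacts, measured 7.03, 31.7, 17.1 and 7.97 CPM, and IRF4, a transcription factor of activated B cells, 33.7, 119, 51.9 and 32.6 CPM. CD69 and IL2RA were still above 2-fold at 8 h, and SLAMF1 and IRF4 were back within 2-fold of the library without LPS. EGR2 and EGR3, of the same list, had fewer than 20 UMIs.

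Of the costimulation partners, the receptors and ligands beside CD80, CD86 and CD40, 2 of 11 genes were higher at 2 h and at 4 h and 0 of 10 at 8 h, with medians of 0.25, 0.53 and 0.09. TNFRSF4 (OX40), a costimulatory receptor, measured 5.46, 12.6, 12.9 and 8.45 CPM. TNFRSF9 (4-1BB), another such receptor, was counted with 2 UMIs without LPS, 50 at 2 h and 22 at 4 h, and its fold of 16.0 at 2 h had an interval of 4.20 to 136. CD28, CD70, TNFSF4 and TNFSF9 had fewer than 20 UMIs, and ICOSLG and CD40LG had no single row of that name.

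In the list of the B cell receptor and the CR2 coreceptor, 1 of 15 genes was higher at 2 h and at 4 h and 0 of 15 at 8 h, with medians of −0.04, −0.13 and −0.15. That gene was FCER2 (CD23), the low-affinity IgE receptor, at 41.5, 87.7, 103 and 50.0 CPM. In the BCL2 family 1 of 10 genes was higher at 2 h, 1 of 11 at 4 h and 0 of 10 at 8 h, with medians of 0.27, 0.51 and 0.12. That gene was BCL2L1, which encodes the survival protein BCL-XL, at 4.24, 20.0, 9.51 and 5.55 CPM.

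**Figure D4:**
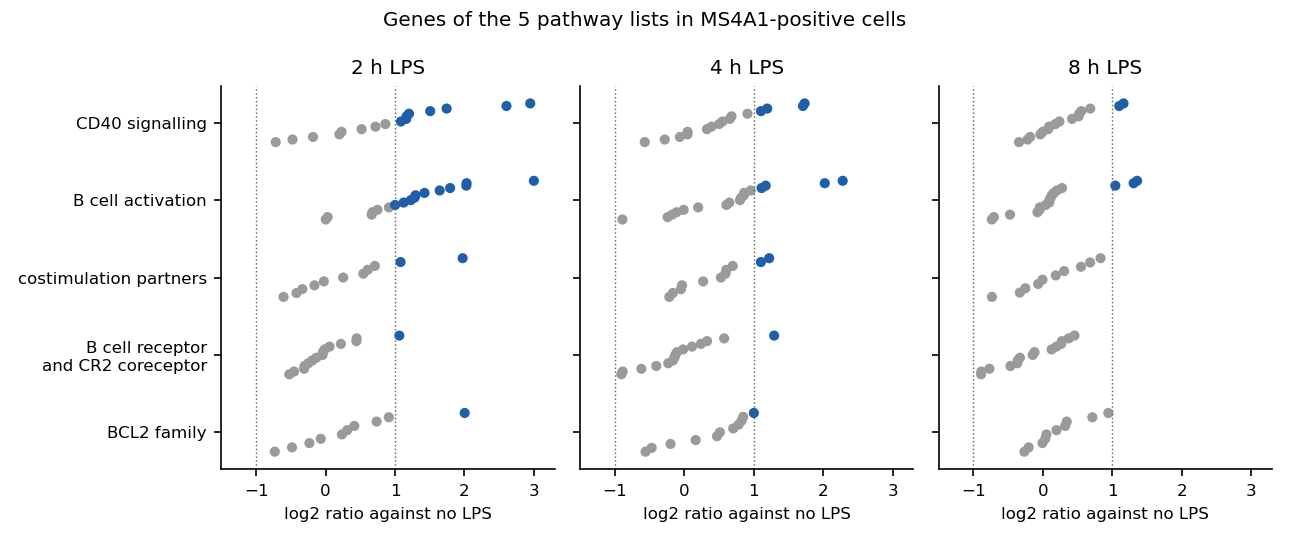
Each point is 1 gene of a list with at least 20 UMIs, placed by its log2 ratio against no LPS in MS4A1-positive cells at 2 h, 4 h and 8 h, blue where at least 2-fold higher, with dotted lines at 2-fold. At 2 h, 8 of 16 CD40 signalling genes and 11 of 17 B cell activation genes lie past 2-fold, but 1 of 15 genes of the B cell receptor and CR2 coreceptor.

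CD14-positive cells differed from MS4A1-positive cells in which of the 6 genes they held and in the size of the LPS difference. BCL2A1 and CD83 were about 2-fold higher at 2 h, CD40 was nearly so at 2 h only, and CR2 was almost without UMIs.

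BCL2A1 in CD14-positive cells measured 1339 CPM (1314 to 1365) without LPS, 2982 CPM (2931 to 3033) at 2 h, 2688 CPM (2608 to 2769) at 4 h and 1832 CPM (1738 to 1929) at 8 h. The folds were 2.23 (2.17 to 2.28), 2.01 (1.94 to 2.08) and 1.37 (1.29 to 1.44). Without LPS the level was 5.83-fold that of MS4A1-positive cells (5.55 to 6.13), and at 2 h 1.25-fold (1.22 to 1.28), so the classes lay closest at 2 h. Monocyte markers other than CD14 in MS4A1-positive cells were 2.49% of their level in CD14-positive cells without LPS and 1.40% at 2 h. BCL2A1 was at 17.1% and 80.0%. The part of monocyte RNA in the BCL2A1 levels of MS4A1-positive cells was not tested.

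CD83 in CD14-positive cells measured 78.7 CPM (72.7 to 85.1), 170 CPM (158 to 182), 208 CPM (186 to 231) and 165 CPM (138 to 196) in order of time. It was 2.16-fold higher at 2 h (1.94 to 2.40), 2.64-fold at 4 h (2.31 to 3.02) and 2.10-fold at 8 h (1.72 to 2.54). Unlike in MS4A1-positive cells, the highest library in CPM was that at 4 h, its interval lying above that at 2 h and meeting that at 8 h. With TMM or DESeq2 scaling the level at 2 h was above that at 4 h, so this order depends on the scaling. Over the alternatives the log2 ratio of CD83 against no LPS was 0.90 to 1.61 at 2 h and 0.88 to 1.64 at 4 h. The neutrophil markers, 5 of which had a row, also summed highest at 4 h in this class, at 10.3, 35.9, 113 and 30.5 CPM in order of time, with MMP8 and CAMP at 0 in every library and LTF at 0 at 8 h, most of the sum being the receptor gene CSF3R at 8.68, 28.1, 96.2 and 24.1 CPM, and their part in the CD83 levels was not tested. The level in MS4A1-positive cells was 2.28-fold that in CD14-positive cells without LPS (2.08 to 2.51) and 6.88-fold at 2 h (6.39 to 7.41).

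CD40 in CD14-positive cells measured 159 CPM (150 to 168), 305 CPM (289 to 322), 171 CPM (151 to 192) and 141 CPM (116 to 170). It was 1.92-fold higher at 2 h (1.78 to 2.08), and its intervals at 4 h (0.941 to 1.23) and 8 h (0.725 to 1.08) include 1. In CPM, CD40 without LPS was 2.14-fold higher in CD14-positive than in MS4A1-positive cells (1.94 to 2.36). At 2 h it was 1.46-fold higher in MS4A1-positive cells (1.37 to 1.55). The order of the classes for CD40 in CPM thus differed between the library without LPS and that at 2 h. In cells thinned to equal depth it differed too. There CD40 had a UMI in 12.1% of CD14-positive and 7.36% of MS4A1-positive cells without LPS, and in 21.4% and 31.3% at 2 h. Without thinning, the share was higher in CD14-positive cells in both libraries, at 58.3% against 24.2% and 73.4% against 64.6%. CD14-positive cells were deeper, with a median of 12807 UMIs against 4847 at 2 h.

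CD86 in CD14-positive cells measured 11.8 to 18.5 CPM, in CPM the highest without LPS, from 147, 61, 19 and 10 UMIs, and its fold at 2 h was 0.759 (0.553 to 1.03). Over the 13 alternatives its log2 ratio at 2 h was −0.67 to 0.11 and kept its sign in 11, so this order depends on the processing. CD80 measured 2.01 to 5.08 CPM from 16, 12, 5 and 4 UMIs. CD80 passed 2-fold at 8 h on 4 UMIs, with a fold of 2.53 and an interval of 0.615 to 7.83 that includes 1. CR2 had 4, 5, 4 and 4 UMIs, under the minimum for a comparison. CR2 in CPM was 2.56% of its level in MS4A1-positive cells without LPS and 14.6% at 8 h, each on 4 UMIs. The 9 B cell markers other than MS4A1 were at 1.87% and 9.12%. The part of B cell RNA in the CR2 counts of CD14-positive cells was not tested.

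Of the 5 genes compared in CD14-positive cells, BCL2A1 and CD83 were at least 2-fold higher at 2 h and 4 h, and CD83 and CD80 at 8 h. Among all genes 3.86% of 8337, 6.12% of 8109 and 8.87% of 8003 were. None of the 5 was at least 2-fold lower, against 17.0%, 9.50% and 5.29% of all genes. The median of all genes was −0.49 on the log2 scale at 2 h, −0.12 at 4 h and 0.12 at 8 h, and TMM moved it by 0.40 at 2 h and by −0.25 at 8 h. With TMM the split of all genes at 2 h went from 322 higher and 1414 lower to 573 and 555 and CD40 also passed 2-fold there, while at 8 h the split went from 710 and 423 to 375 and 657 and neither CD83 nor CD80 did. The T cell markers summed to 69.4 CPM without LPS and 201 CPM at 8 h in this class, as the B cell markers did at 8 h, and their part in the 8 h values was not tested.

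Genes of the same pathways were compared in CD14-positive cells for those named above. TRAF1 measured 50.3, 174, 132 and 102 CPM, TNFAIP3 277, 1269, 888 and 554 CPM, and CD69 6.41, 367, 456 and 50.8 CPM. SLAMF1 measured at most 275 CPM, at 2 h, and least without LPS. These genes were above the level without LPS in each LPS library, while IRF4 at 4.65, 4.14, 9.93 and 3.81 CPM and BCL2L1 at 39.0, 20.0, 42.2 and 33.0 CPM did not pass 2-fold in this class. In the CD40 signalling list 9 of 16 genes were higher at 2 h, in the B cell activation list 7 of 18, with 1 lower, and in the list of the B cell receptor and CR2 coreceptor 0 of 15, with 3 lower. Of the costimulation partners 2 of 10 were higher and 2 lower at 2 h, and of the BCL2 family 3 of 11 were higher and 2 lower. Among all genes at 2 h, 3.86% were higher and 17.0% lower. In the B cell activation list 9 of 17 genes were higher at 4 h and 8 of 16 at 8 h, with 1 lower at 8 h. In the CD40 signalling list 8 of 15 were higher at 4 h and 2 of 15 at 8 h. Among all genes 6.12% were higher at 4 h and 8.87% at 8 h.

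The FLT3-positive cells were too few for a fold, since no library held 20, and their values are given as levels. CD83 measured 1221 CPM (1014 to 1458) from 7 cells without LPS, 2104 CPM (1834 to 2401) from 8 cells at 2 h, 899 CPM (633 to 1239) from 3 cells at 4 h and 1239 CPM (1003 to 1515) from 5 cells at 8 h. CD86 measured 50.0 CPM (16.2 to 117) without LPS and 317 CPM (218 to 445), 340 CPM (186 to 571) and 248 CPM (149 to 387) in the LPS libraries. CD86 stood at 26.7-fold the level of MS4A1-positive cells at 2 h (17.7 to 39.1), but at 4.39-fold without LPS (1.39 to 10.6), where BCL2A1 at 17.4-fold (15.6 to 19.4) and CD83 at 6.79-fold (5.60 to 8.17) stood further above that class. The 6 plasma cell markers in these cells summed to 1241 CPM without LPS and to 125, 146 and 196 CPM in the LPS libraries, with JCHAIN, a chain of polymeric antibodies, at 77 UMIs without LPS and 0, 0 and 4 with it, and with 1, 3, 5 and 3 of the 6 markers at 0. Their part in the levels of CD86 and the other genes was not tested. BCL2A1 measured 4002, 6753, 5930 and 6105 CPM, above CD14-positive cells in every library, and CD40 210, 336, 122 and 222 CPM. CR2 was at 0 UMIs in all 4 libraries, and CD80 at 0 in 3 of them with 1 UMI at 4 h. An interval here says nothing of how other FLT3-positive cells would vary.

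With at least 1 UMI of FLT3 and no limit on genes per cell, an alternative chosen after seeing the data, 26, 24, 14 and 16 cells were taken. CD83 was then at 1103, 1601, 1060 and 815 CPM and CD86 at 45.4, 182, 189 and 138 CPM. Between the libraries without LPS and at 2 h, both with over 20 cells, CD86 was 4.01-fold higher (2.31 to 7.27), CD40 2.50-fold (1.86 to 3.37), CD83 1.45-fold (1.27 to 1.66) and BCL2A1 1.42-fold (1.32 to 1.52). In MS4A1-positive cells at the same time CD86 stood at 1.04-fold and BCL2A1 at 10.4-fold. The wider FLT3-positive class also held T cell RNA. In order of time CD3E measured 45.4, 99.6, 142 and 214 CPM there, while CD5 fell, at 80.8, 68.7, 42.9 and 24.2 CPM. The part of other cells' RNA in the folds of the wider class was not tested.

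Across the classes, CR2 was thus read mostly in MS4A1-positive cells, at 80.9 CPM at 2 h against 1.15 CPM in CD14-positive and 0.967 CPM in CD3-positive cells. The contrast was smaller at 8 h, at 34.8 CPM against 5.08 and 1.28 CPM. There CR2 was 6.84-fold higher in MS4A1-positive than in CD14-positive cells (2.61 to 25.4). CD40 was read in MS4A1-positive, CD14-positive and FLT3-positive cells at levels between 74.1 and 446 CPM and in CD3-positive cells at 1.89 to 6.72 CPM. The order of the classes for BCL2A1 was FLT3-positive, CD14-positive, MS4A1-positive and CD3-positive in all 4 libraries. For CD83 FLT3-positive cells came first, then MS4A1-positive, CD14-positive and CD3-positive cells, although at 4 h the intervals of the first pair met.

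The genes whose log2(CPM + 1) was most like that of each of the 6 over the 12 class sums were listed among 8208 genes with at least 200 UMIs. The closest to BCL2A1 were TRAF1 (Pearson r = 0.96), TNIP2 (0.94) and MARCKS (0.92), and to CD83 BCL2L11 (0.97), SFPQ (0.95) and IPO7 (0.95). The closest to CD40 were GRB2 (0.74), HNRNPU (0.70) and UBE2E1 (0.61). For CD86 they were TRAF6 (0.98), OTULIN (0.96) and CCDC50 (0.95), for CR2 PUSL1, NDUFAF4 and IGF2BP3 (0.99 each), and for CD80 MRS2, POLG and IQCE (0.99 each). The 4 FLT3-positive sums come from few cells and hold many values of 0, and sums of 1 library share its depth. The lists were also made over the 8 sums without FLT3-positive cells, a choice made after seeing the data. There TNIP2 (0.99) and TRAF1 (0.98) remained among the closest 3 to BCL2A1, joined by TNFRSF18 (0.98). No gene of the 12-sum lists remained for CD83, CD40, CD80, CD86 or CR2, so those lists depended on the FLT3-positive sums. TANK, TRAF4 and TMEM243 were then closest to CD83 (0.97 each).

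The scATAC tables list counts per gene and barcode, and the rule that assigned fragments to genes was not given in the sources used here. CD83, CD40, CD80, CR2 and BCL2A1 had a row in all 4 tables and CD86 in none. The library without LPS was far shallower, with 975012 counts and a median of 213 per barcode, than those at 2 h, 4 h and 8 h with 30250143, 26837579 and 11957904 counts. Between 88.7% and 93.8% of the counts above 0 were even numbers, so neighbouring counts are not independent and the intervals here are too narrow.

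Over all barcodes, with counts scaled to 1000000 per library as CPM, BCL2A1 measured 42.1 CPM without LPS (30.2 to 57.0), 71.8 at 2 h (68.8 to 74.9), 72.0 at 4 h (68.8 to 75.3) and, by 8 h, 51.7 (47.7 to 55.9). Its folds were 1.71 (1.25 to 2.39), 1.71 (1.26 to 2.39) and 1.23 (0.895 to 1.73), the highest of the 5 genes at each time. CD83 measured 157, 126, 124 and 117 CPM, CD80 99.5, 91.6, 100.5 and 95.8, and CD40 42.1, 42.1, 38.7 and 43.1. Log2 ratios of these 3 genes lay between −0.42 and 0.03, while the RNA of CD83 and CD40 was several-fold higher in MS4A1-positive cells at 2 h. CR2 measured 29.7 CPM from 29 counts (19.9 to 42.7), then 16.0, 16.6 and 10.5.

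None of the 5 genes was at least 2-fold higher in scATAC at any time, against 8.52%, 7.65% and 4.19% of the genes compared at 2 h, 4 h and 8 h. CR2 at 8 h, with a fold of 0.354 (0.235 to 0.550), was the only 1 of the 5 at least 2-fold lower, against 5.54% of genes, and none was at 2 h or 4 h, against 4.94% and 3.92%. When barcodes under 500 counts were left out, which kept 352 of 3121 barcodes of the library without LPS and all of the others, BCL2A1 passed 2-fold at all 3 times, with log2 ratios of 2.21, 2.22 and 1.75 in place of 0.76, 0.76 and 0.29.

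Barcodes marked by B cell genes numbered 29 without LPS and 1231, 942 and 487 at 2 h, 4 h and 8 h, so only the LPS libraries are compared. In these BCL2A1 measured 72.0, 77.0 and 62.5 CPM, CD83 156, 146 and 158, and CD80 97.3, 102 and 103. CD40 measured 67.8, 52.4 and 80.9 and CR2 24.5, 20.8 and 14.2. CD40 was 1.55-fold higher at 8 h than at 4 h (1.36 to 1.76) and CR2 0.684-fold (0.512 to 0.903), and none of the 5 genes differed 2-fold between the LPS libraries. Neither CD14 nor CSF1R was listed at 8 h, so barcodes with a count on them were left out at 2 h and 4 h but not at 8 h. Over all barcodes CD40 was 1.11-fold (0.999 to 1.24) and CR2 0.635-fold (0.517 to 0.776) at 8 h against 4 h. CD40 RNA in MS4A1-positive cells was 1.92-fold lower at 8 h than at 4 h (1.75 to 2.11).

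**Figure D5:**
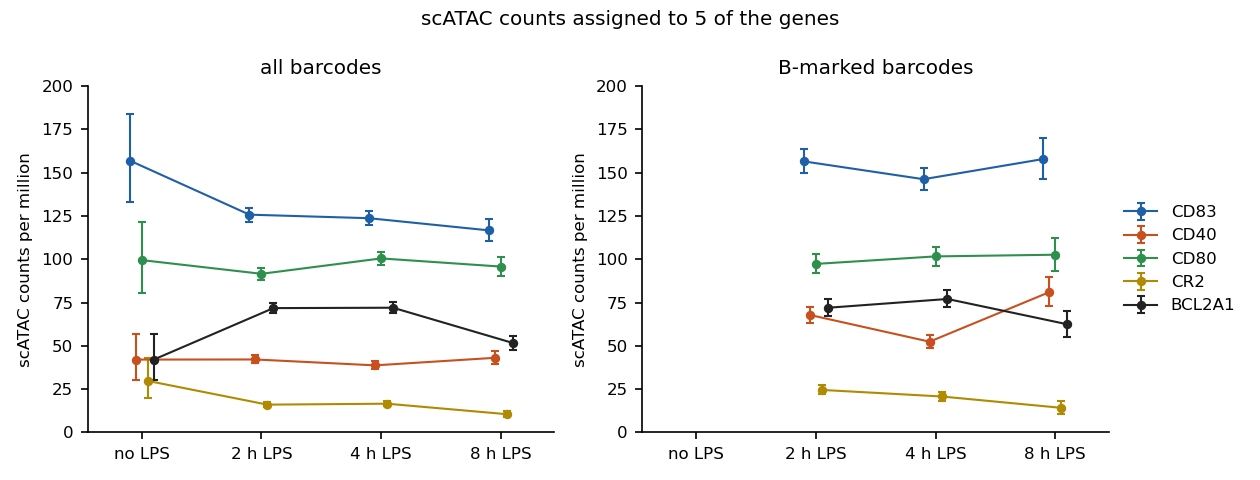
scATAC CPM for 5 of the genes by library, over all barcodes (left) and over barcodes marked by B cell genes (right, without the library without LPS and its 29 such barcodes), with exact Poisson 95% intervals. BCL2A1 goes from 42.1 without LPS to 71.8 at 2 h on the left, with a wide interval without LPS, while CD83 goes from 157 to 126.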

How the data were processed

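Single-cell RNA and scATAC tables of 4 whole-blood treatments were used, 8 libraries in all. The authors deposited gene by barcode count tables made from reads aligned with Cell Ranger to the ARS-UCD1.2 (bosTau9) assembly. RNA counts are UMIs from a 3' kit. How scATAC counts were assigned to genes was not given in the sources used here. Groups came from the sample titles.

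Barcodes were kept as cells when they had 200 or more UMIs, between 200 and 3000 genes detected and a mitochondrial share below 20%. No doublet caller was run. Cells with at least 2 UMIs of more than 1 of MS4A1, CD14 and FLT3, 20 to 67 per library, were set aside. UMIs were summed per class and library, with exact Poisson intervals for CPM, exact conditional binomial intervals for folds (ratios of CPM) and exact binomial intervals for shares, all at 95%. Calls used a pseudocount of 1 CPM. The calculation of ratios and intervals was checked on simulated independent Poisson counts. These held no variation between cells or libraries, so the check says nothing of how well the intervals cover it. A scATAC barcode was marked as B cell when at least 2 of 6 B cell markers, MS4A1, CD79A and PAX5 among them, had a count and none of CD14 and CSF1R did. T cells could not be left out in this way, since CD3D, CD3E and CD3G were in no scATAC table, and CD14 was listed at 2 h and 4 h only and CSF1R not at 8 h.

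Python 3.11.15, numpy 2.4.6 and scipy 1.17.1 were used, and edgeR 4.0.16 (TMM) and DESeq2 1.42.0 (size factors) in R 4.3.3 gave alternative scalings. The 6 genes, the gene lists and the classes were chosen with earlier results of these data known. The genes named from each list were the up to 4 with the largest differences past 2-fold in MS4A1-positive cells, and the genes with too few UMIs were named after their values were seen. Other alternatives were the UMIs that make a cell positive, cell filters, CD3 exclusion, equal weight per cell, the pseudocount and the UMI minimum. No sequence or coordinate is printed, since the reference tables are of another assembly. Some genes of the lists are not reported here.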

Additional observations from a re-analysis of the deposited data

Results flagged for a closer look

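CD3-positive cells, which enter no LPS comparison above, also passed the 2-fold threshold for 3 of the genes at 2 h and for CD83 at 4 h. CD83 was 4.61-fold higher at 2 h and 3.47-fold at 4 h, CD40 was 3.55-fold higher at 2 h and BCL2A1 2.41-fold higher at 2 h, each against the library without LPS. CR2 had 2 UMIs without LPS and 20, 17 and 11 in the LPS libraries, with folds of 7.40 (1.80 to 65.3), 6.82 (1.62 to 60.8) and 9.83 (2.14 to 91.2) whose intervals exclude 1, but at 2 h it was within 2-fold on the log2(CPM + 1) scale, at 0.80, and at 4 h and 8 h it had fewer than 20 UMIs over both sums. The levels were low for CD83, at 7.58, 35.0, 26.3 and 14.8 CPM, and for CD40, at 1.89, 6.72, 2.78 and 1.98 CPM. CD83 in CD3-positive cells was at most 4.22% of its level in MS4A1-positive cells of the same library, and the 9 B cell markers other than MS4A1 were at 6.48%, 6.30%, 7.19% and 7.77% of theirs. CD40 was at 1.13% to 2.56%. In CD3-positive cells these 9 markers summed to 165, 125, 137 and 147 CPM in order of time. Most of that was BLK, at 121, 94.4, 112 and 89.5 CPM. BLK was lower in MS4A1-positive cells, at 39.3, 32.4, 25.8 and 39.4 CPM, so the share of the 9 markers does not measure B cell RNA here. The part of B cell RNA in the CD83 and CD40 levels was not tested. BCL2A1, at 121, 291, 237 and 143 CPM, was at 52.7%, 12.2%, 19.8% and 28.8% of its level in MS4A1-positive cells, above the share of the markers, and the part of other cells' RNA in it was not tested.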

How the results depend on the processing

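In MS4A1-positive cells the 4 genes higher at 2 h and at 4 h remained so under all 13 alternatives, with log2 ratios at 2 h of 2.83 to 3.49 for BCL2A1, 2.46 to 2.82 for CD83, 2.44 to 2.69 for CD40 and 1.62 to 2.14 for CR2. Among these alternatives, dropping or raising the UMI minimum could not change the ratios or calls of these genes. A mitochondrial limit of 10% kept nearly the same cells, 1599 of 1603 without LPS and 2259 of 2261 at 2 h. At 8 h the count of 2 became 1 (BCL2A1) with at least 1 UMI of MS4A1, without cells holding a CD3 UMI, with TMM or DESeq2 scaling, with cells weighted equally and with a pseudocount of 10 CPM, and 0 with no limit on genes and with B cells chosen by other markers. In CD14-positive cells the count higher became 1 at 2 h with no limit on genes, and 1 at 4 h with at least 1 UMI of CD14, no limit on genes, at least 2000 UMIs per cell, a pseudocount of 10 CPM or CSF1R required as well. At 8 h it became 1 or 0 under the alternatives that changed it: 0 with no limit on genes, TMM, DESeq2 scaling or the larger pseudocount, and 1 with at least 1 or 3 UMIs of CD14, no CD3 UMI, equal weights, a minimum of 200 UMIs or CSF1R. The count lower became 1 (CD86) at 4 h with equal weights and at 8 h with equal weights or no limit on genes. In scATAC the count higher became 1 (BCL2A1, on few counts without LPS) at each time with at least 500 counts per barcode, and the count lower at 8 h became 0 with a pseudocount of 10 CPM. No called ratio reversed. The cause of these shifts was not tested.

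With a pseudocount of 10 CPM the number of all genes at least 2-fold higher in MS4A1-positive cells at 2 h was 105 in place of 254, and in CD14-positive cells 168 in place of 322. TMM and DESeq2 scaling were not run for FLT3-positive sums. No paired analysis was possible because each treatment had 1 library per assay. Requiring CSF1R was chosen after seeing the data. The depth of the library without LPS limits every scATAC fold against it, and the 109 CD14-positive cells at 8 h limit that class. One library per time leaves the spread between animals, cultures and libraries unmeasured.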
